A study of Caenorhabditis elegans with 2 samples.

Results

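The genes described here encode subunits of RNA polymerases I, II and III and general transcription factors of RNA polymerase II in Caenorhabditis elegans. They were taken by name: ama-1, tbp-1 and ttb-1, and every protein-coding symbol of the rpb, rpc, rpoa, rpac, taf and gtf families in the Ensembl annotation of WBcel235. This gave 51 of 19973 nuclear protein-coding genes. By the roles that their names and RefSeq products give, 22 encode polymerase subunits, 18 encode TFIID (the TATA-binding protein TBP and its associated factors, the TAFs) and 11 encode other general factors.

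The study mapped NFYB-1, which is subunit B of NF-Y, a factor that binds CCAAT, by chromatin immunoprecipitation and sequencing. Whole young adults of strain RW12190 carried nfyb-1 joined to TY1, EGFP and 3xFLAG by a CRISPR insertion at its own locus (st12190), were staged by starving first-stage larvae after bleaching, and were collected at 65 hours. Chromatin was sonicated to 200 to 800 bp and pulled down through the GFP tag, in 2 biological replicates of 1 group, so there was no second condition to compare. Every animal carried the tagged allele, untagged worms were not analysed here, and a signal is an average over all cells of the worm. Read depth is unknown for either replicate.

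RNA polymerase I makes the large ribosomal RNAs, polymerase II makes messenger RNAs, and polymerase III makes transfer RNAs and other short RNAs. The enzymes share a set of small subunits and each adds its own. At a polymerase II promoter, TFIID and TFIIA mark the start, TFIIB and TFIIF bring in the polymerase, and TFIIE and TFIIH open the DNA. NF-Y is known from other animals to bind these boxes upstream of the starts of many broadly expressed genes.

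A gene was called bound where the summit of a region in the conservative list of the whole series lay between 500 bp upstream and 200 bp downstream of one of its annotated starts. By this rule 7 of the 51 genes were bound (13.7%, exact Clopper-Pearson 95% interval 5.70 to 26.3), against 7.41% of all protein-coding genes. The interval holds the share of all genes, so a difference was not detectable with 51 genes. The bound genes were rpb-3, rpb-9 and rpb-11 of RNA polymerase II, rpac-19 of polymerases I and III, and taf-4, taf-6.1 and taf-10 of TFIID.

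**Figure D1:**
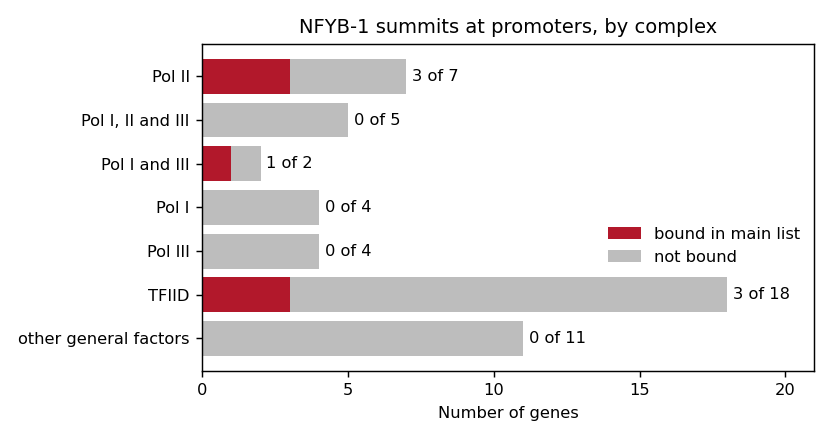
Number of genes in each complex with an NFYB-1 summit in the promoter window (red) and without one (grey). Bound genes lay in 3 of the 7 classes: 3 of 7 genes of polymerase II, 1 of 2 of polymerases I and III, and 3 of 18 of TFIID. By the same rule, 7.41% of all protein-coding genes were bound.

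The DNA under 3 of these summits is shown because these summits lay between genes, outside any annotated exon. The summits of rpb-9 and taf-6.1 fell in coding sequence and that of rpb-3 in a noncoding gene, and the sequence at taf-4 is not shown here. Each sequence is from WBcel235 (RefSeq), which is ce11, and is written 5′ to 3′ on the strand of the gene. It reaches up to 100 bp to either side of the summit and was cut short at rpac-19, before the 3′ untranslated region of ubc-7. The choice of genes was made after their values were seen. Capitals mark CCAAT on either strand, the longer NF-Y pattern (a pair of purines, CCAAT, C or G, and a purine, on either strand) and CGCGC on either strand.
taf-10, V:4686770-4686970, plus strand: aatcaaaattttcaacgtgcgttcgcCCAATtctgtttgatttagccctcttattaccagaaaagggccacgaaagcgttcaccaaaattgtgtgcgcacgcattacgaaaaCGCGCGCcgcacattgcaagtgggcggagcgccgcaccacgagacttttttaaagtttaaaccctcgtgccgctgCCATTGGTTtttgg
rpb-11, II:14059866-14060066, plus strand: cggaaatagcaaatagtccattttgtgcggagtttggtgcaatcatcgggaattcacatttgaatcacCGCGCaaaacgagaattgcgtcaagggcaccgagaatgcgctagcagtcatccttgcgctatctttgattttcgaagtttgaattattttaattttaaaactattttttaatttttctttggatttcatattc
rpac-19, III:9629938-9630096, minus strand: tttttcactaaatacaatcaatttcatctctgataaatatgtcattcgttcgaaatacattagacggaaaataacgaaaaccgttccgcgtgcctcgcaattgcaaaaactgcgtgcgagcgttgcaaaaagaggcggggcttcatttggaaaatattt

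The taf-10 window holds CCAAT at 2 places, centred 72 and 91 bp from the summit. The latter, nearer to the gene, reads CCATTGGTT on the strand shown and matches the longer pattern on the other strand. The rpb-11 window holds CGCGC and no CCAAT, and the rpac-19 window holds neither.

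RNA polymerase II had summits at 3 of its 7 own subunit genes (42.9%, exact 95% interval 9.90 to 81.59, against 7.41% of all protein-coding genes). Of all the classes looked at, only this one had an interval that left out the share of all genes. The difference was not tested. With main regions that overlap both replicates' lists, 1 of the 7 genes was bound, against 3.05% of all protein-coding genes by that rule. The strongest lay at rpb-11 (II:14059778-14060153), whose product pairs with RPB3 in the core of the enzyme. Its summit was 119 bp upstream of the start, between genes, and its signal was 266.7 in the main list, at rank 410 of 3879 nuclear regions. The deposited signal is the peak caller's own value for a region, on a scale that is not stated. The signal was 131.4 in replicate 1 and 127.8 in replicate 2 (mean 129.6 ± 2.56, SD, n = 2), and the region was in the thresholded list of each replicate.

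At rpb-3 (I:8728466-8728841), which encodes the partner of RPB11, the summit lay 110 bp upstream of the start. The main list gave a signal of 116.8, and the ranked lists 43.2 and 75.9 in replicates 1 and 2 (mean 59.6 ± 23.1, SD, n = 2). Only replicate 2 held it in its thresholded list. The same summit was 167 bp from the start of pas-4, a gene for an alpha subunit of the proteasome on the opposite strand, and lay within the noncoding gene C36B1.16, so the region cannot be given to rpb-3 alone.

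At rpb-9 (V:8012008-8012383), a small subunit known from yeast for its part in start-site choice and fidelity, the summit lay 149 bp downstream of the start, inside the coding sequence. The main list gave a signal of 93.8, and the ranked lists 54.8 and 45.2 in replicates 1 and 2 (mean 49.97 ± 6.79, SD, n = 2). Neither replicate's thresholded list held it. Its score, a scaled form of the irreproducible discovery rate (IDR), was 852, the lowest of the bound genes and close to 830, the lowest score in the main list.

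The other 4 subunit genes of polymerase II were not bound. For ama-1, which encodes the largest, catalytic subunit, the nearest main summit lay 46705 bp away, the farthest of all 51 genes. The strongest region in its window in the authors' ranked list, which also holds regions that did not pass, had a signal of 59.8 and a score of 274. In the ranked lists of replicates 1 and 2 the strongest region at ama-1 had signals of 22.3 and 37.0. For rpb-2, the other large subunit, that score was 551, and for rpb-7, which forms the stalk with RPB4, it was 348. The window of rpb-4 held no ranked region.

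The 5 genes for subunits common to all polymerases (rpb-5, rpb-6, rpb-8, rpb-10 and rpb-12) were not bound (exact 95% interval 0 to 52.2%, against 7.41% of all protein-coding genes). The closest to the threshold was rpb-12, with a signal of 90.7 and a score of 725 in the ranked list, and 40.1 and 44.9 in replicates 1 and 2. At rpb-10 the score was 550, at rpb-5 351 and at rpb-8 55, and rpb-6 had no region in the ranked main list.

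Of the pair shared by polymerases I and III, rpac-19 was bound and rpac-40 was not. Their products, AC19 and AC40, are the counterparts of RPB11 and RPB3. The rpac-19 summit lay 153 bp upstream of the start (III:9629850-9630225), with a signal of 213.1 at rank 674. The replicates differed there, at 72.9 in replicate 1 and 140.6 in replicate 2 (mean 106.7 ± 47.9, SD, n = 2), and only the latter held the region in its thresholded list. A weaker region (III:9630052-9630427, signal 34.1) had its summit 355 bp upstream, in the 3′ untranslated region of ubc-7. It overlapped the stronger region by 174 bp and had no region of its own in replicate 2, so whether it is a site of its own was not tested. For rpac-40 the strongest ranked region had a signal of 43.1 and a score of 125.

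The naming rule takes 4 genes of polymerase I and 4 of polymerase III. Subunit genes with another kind of symbol were not counted. None of the genes taken was bound (exact 95% interval 0 to 60.2% for each class, against 7.41% of all protein-coding genes). Nearest was rpoa-2, the large second subunit of polymerase I, with a main summit of signal 81.6 at 599 bp upstream, outside the window. A summit 744 bp downstream of the start of rpoa-12, past the end of that gene, lay in the coding sequence of pas-1. The highest ranked regions at rpoa-1, rpoa-2 and rpoa-12 had scores of 229, 223 and 614, and rpoa-49 had none. For rpoa-1 and rpoa-49, the nearest summits were 6590 and 20180 bp away. Among polymerase III genes, rpc-2 had the strongest ranked region of all genes that were not bound. Its signal was 103.5 and its score 727. Replicate 2 listed that promoter at 72.3, with a score of 786, and the window held no ranked region in replicate 1. At rpc-25 the score was 705, with 40.7 and 43.0 in replicates 1 and 2, at rpc-1 it was 55, and rpc-11 had no ranked region.

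TFIID had summits at 3 of its 18 genes (16.7%, exact 95% interval 3.58 to 41.4, against 7.41% of all protein-coding genes). With main regions that overlap both replicates' lists, 1 of the 18 was bound, against 3.05% of all protein-coding genes by that rule. The strongest of all 51 genes was taf-4 (I:382448-382586), whose product is a scaffold subunit of TFIID. The summit lay 284 bp upstream of the start, with a signal of 294.3 at rank 338. The replicates gave 141.7 and 146.9 (mean 144.3 ± 3.72, SD, n = 2), and each held the region in its thresholded list. With rpb-11 it was the only bound gene of the 51 supported in this way by both replicates.

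At taf-10 (V:4686682-4687057), a TAF with a histone fold, the summit lay 233 bp upstream of the start. The main list gave a signal of 124.4, and the ranked lists 69.5 and 58.4 in replicates 1 and 2 (mean 64.0 ± 7.81, SD, n = 2). Neither thresholded list held it. Its score in the main list was 1000, where the scale stops, and its signal ranked 1980 of 3879 nuclear regions. Its −log10 global IDR was 2.78, below those of rpac-19 (3.7, stronger region), rpb-11 (4.32) and taf-4 (4.53), which also scored 1000. At taf-6.1 (II:1128620-1128995), also a TAF with a histone fold, the signal was 101.4, and 47.9 and 56.1 in replicates 1 and 2 (mean 52.0 ± 5.80, SD, n = 2), again in neither thresholded list. Its summit lay in the coding sequence, 78 bp downstream of the start of a shorter annotated transcript and 832 bp downstream of the most upstream start. The taf-6.1 call therefore rests on that inner start.

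**Figure D2:**
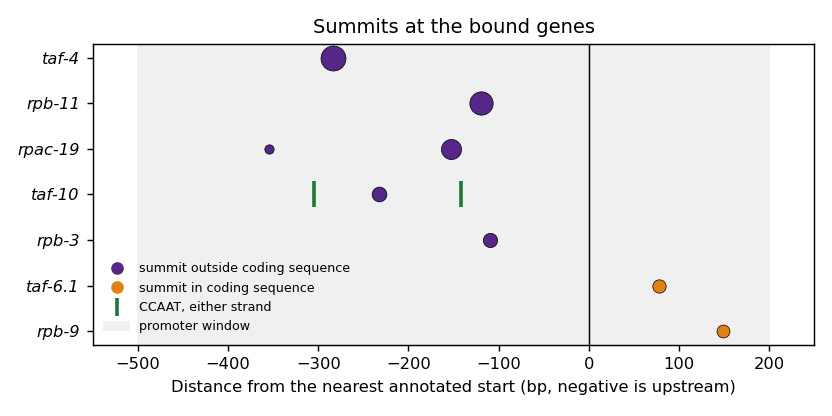
Position of each summit at the 7 bound genes (points, larger for a higher signal in the main list) relative to the nearest annotated start in bp, with CCAAT within 100 bp of the summit as green bars and the promoter window in grey. Points at 5 genes lay upstream of the start, those of rpb-9 and taf-6.1 lay downstream in coding sequence, and taf-10 alone had CCAAT.

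The other 15 TFIID genes, tbp-1 among them, were not bound. The window of tbp-1, which encodes TBP, held a ranked region of signal 86.3 and score 659, with 36.2 and 45.0 in replicates 1 and 2. The highest score among them was 746 at taf-5, which had signals of 43.3 and 43.6 in replicates 1 and 2. At taf-6.2, the paralogue of taf-6.1, the score was 322. The nearest main summit to taf-12, whose product pairs with TAF4, was 944 bp upstream of the start. For taf-9, the partner of TAF6, it was 1583 bp downstream, in the coding sequence of taf-9. The windows of taf-1, taf-2, taf-7.1, taf-7.2, taf-11.3 and taf-13 held no ranked region, and those of taf-3, taf-8, taf-9, taf-11.1, taf-11.2 and taf-12 had scores of at most 147.

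None of the 11 other general factor genes was bound (exact 95% interval 0 to 28.5%, against 7.41% of all protein-coding genes). The naming rule leaves out other genes of these factors. Of those, pqn-51, listed with TFIIA, and cdk-7 of TFIIH were bound, whereas xpb-1, xpd-1, cyh-1 and mnat-1 of TFIIH were not. For ttb-1, which encodes TFIIB, the strongest ranked region had a signal of 84.6 and a score of 144, with 19.5 and 51.6 in replicates 1 and 2, and the nearest main summit was 29069 bp away. The genes that the rule takes for TFIIA (gtf-2A2), TFIIE (gtf-2E1 and gtf-2E2) and TFIIF (gtf-2F1 and gtf-2F2) had scores of 55 to 297. Of the 5 TFIIH genes that the rule takes, gtf-2H2C, gtf-2H4 and gtf-2H5 had scores of 108 to 277. The windows of gtf-2H1 and gtf-2H3 held no ranked region of the whole series.

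**Figure D3:**
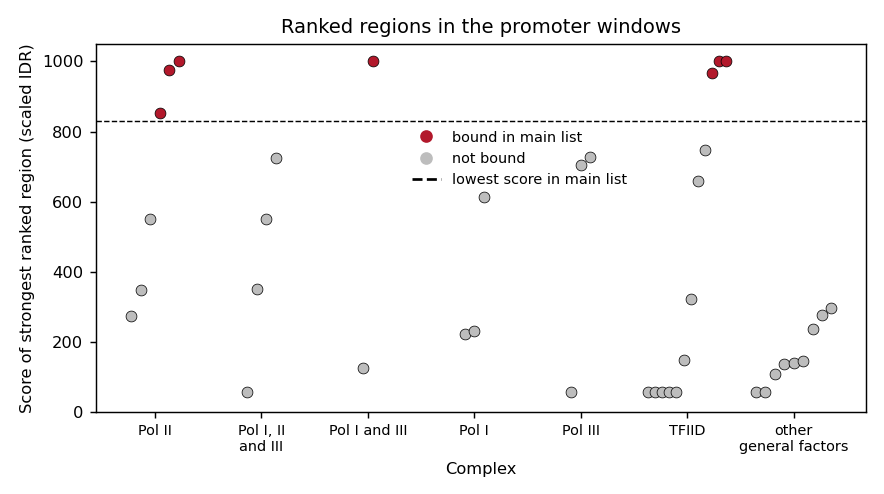
Score (scaled IDR, from 0 to 1000) of the ranked region with the highest signal in the promoter window, for the 39 genes that had one, by complex. Red points are genes bound in the main list, and the dashed line is the lowest score in that list, 830. The bound gene nearest to the line was rpb-9 at 852, and the highest gene below it was taf-5 at 746.

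In all, 39 of the 51 windows (76.5%) held a ranked region of any score, against 51.7% of all protein-coding genes, and 12 held none. Among the 32 genes that had one and were not bound, the highest signal in the window ran from 2.81 to 103.5 with a median of 47.5. The 7 bound genes ran from 93.8 to 294.3 with a median of 124.4, as the main list selects. None of the 44 genes not bound had a ranked region at or above a score of 830, as the main list's cut sets. Their nearest main summits lay 599 to 46705 bp away, with a median of 7694.5 bp. Over all 51 genes the median distance was 5398 bp, against 12311 bp over all protein-coding genes. Neither this difference nor that in the share of windows with a ranked region was tested.

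The bound regions ranged from strong to weak within the main list. Signals in the whole main list had a median of 125.6, and 3 of the 8 regions of these genes, at taf-4, rpb-11 and rpac-19, ranked in its upper part. Of the 7 bound genes, 2 were bound in the lists of both replicates, rpb-11 and taf-4. Among all genes, 604 of the 1480 bound (40.8%, or 3.02% of all protein-coding genes) were also bound in the list of each replicate. Replicate 2 was the higher one at rpac-19, rpb-3, taf-4 and taf-6.1. The SD was 47.9 at rpac-19 (stronger region) and 23.1 at rpb-3, and at most 7.81 at the other 5 genes. At regions shared by the lists of both replicates, log2 signal was higher in replicate 2 than in replicate 1 by a median of 0.25, so an SD can include an offset between the replicates.

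**Figure D4:**
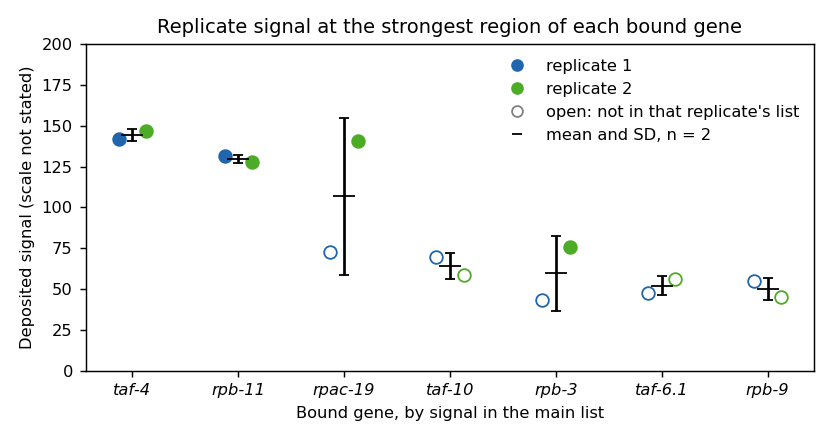
Deposited signal of the replicate region that overlaps the strongest main region of each bound gene, for replicate 1 (blue) and replicate 2 (green), with the mean and SD (n = 2). Open points were not in that replicate's thresholded list. Points for taf-4 and rpb-11 lay above 125 in both replicates, and those for taf-10, taf-6.1 and rpb-9 were open in both.

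The count of bound genes depended on the list more than on the window. In the list of replicate 1 alone 2 of the 51 genes were bound (3.92%, against 3.68% of all protein-coding genes), and in that of replicate 2 alone 4 (7.84%, against 5.12%). With main regions that overlapped the lists of both replicates, 2 genes were bound (3.92%, against 3.05%), and at a stricter IDR of 0.001, 3 (5.88%, against 3.79%), namely rpac-19, rpb-11 and taf-4. The other whole-series list gave the same 7 genes (13.7%, against 7.58%), as did counting only the gene with the start nearest to the summit (13.7%, against 6.31%). A promoter of 250 bp upstream to 100 bp downstream gave 5 genes (9.80%, against 4.58%), without rpb-9 and taf-4. One reaching 1000 bp upstream gave 9 (17.6%, against 9.61%), with rpoa-2 and taf-12 added, and any overlap of region and promoter gave 8 (15.7%, against 8.78%), with rpoa-2 added. Each interval on the 51 genes held the share of all genes, with the exception described next.

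Many of these genes sit closely behind another gene on the same strand, as genes in worm operons do. Of the 51, 20 (39.2%) had a same-strand gene ending at most 500 bp upstream of the most upstream start, against 19.3% of all protein-coding genes. Of those 20, 3 were bound by their own window (15.0%, against 8.60% of all genes so placed), namely rpac-19, rpb-9 and taf-6.1. Of the other 31, 4 were bound (12.9%, against 7.13%). With a gene also counted where the summit lay at the promoter of the first gene of its same-strand run, a rule added after the data were seen, 11 of the 51 genes were bound (21.6%, exact 95% interval 11.29 to 35.32, against 9.45%). The 4 added genes were tbp-1, rpb-5, rpc-2 and gtf-2F2. Only a gene placed behind another can gain by this rule, and 39.2% of the 51 were so placed against 19.3% of all. The 9.45% is therefore not a like-for-like share, and the difference was not tested. Whether these neighbours are transcribed together was not tested.

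**Figure D5:**
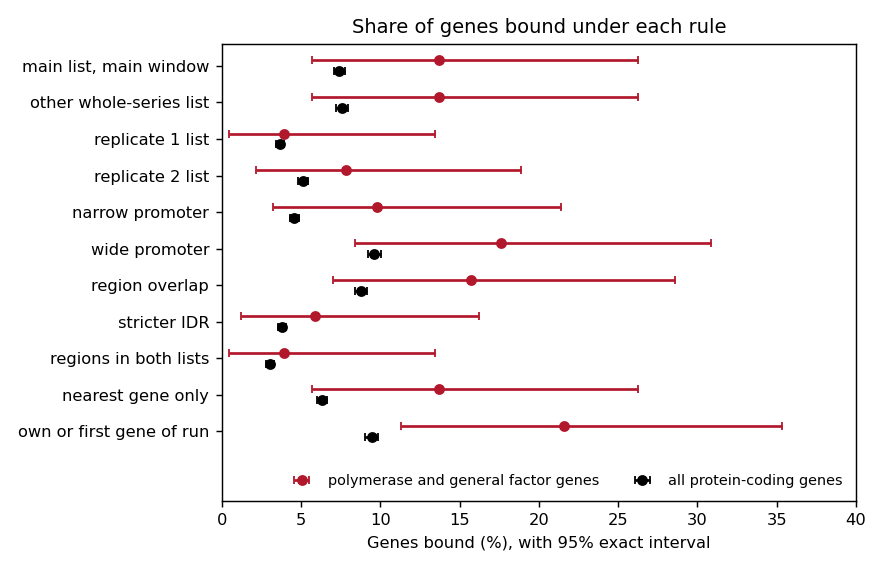
Share of genes bound (%) under each list, window or rule, for the 51 polymerase and general factor genes (red) and for all 19973 protein-coding genes (black), with exact 95% intervals. The red points ran from 3.92% to 21.6%, and the red interval left out the black point only under the rule that also counts the first gene of a same-strand run. That rule can add only genes placed behind another, which were 39.2% of the 51 and 19.3% of all, so its points are not like for like.

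CCAAT was looked for around each summit. Of the 8 regions, of which the 2 at rpac-19 overlap, 1 had it no farther than 100 bp from its summit, that of taf-10 shown above, while 36.9% of all main summits had it. The longer pattern was found in the same region only, and in 8.38% of all main summits. Within 50 bp of the summit neither was found at any of the 8, against 23.4% of all main summits for CCAAT and 7.01% for the longer pattern. With a distance of up to 100 bp, CGCGC was found in 2 of the 8 regions, those of taf-10 and rpb-11, and in 25.3% of all main summits. With 8 regions, a difference from all main summits was not tested. The GC content of the 8 windows ran from 33.8% at rpb-3 to 55.2% at taf-6.1 with a median of 39.3%, against a median of 43.8% over all main summits.

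Whole promoters were searched as well. In windows from 500 bp upstream to 200 bp downstream of the most upstream start, CCAAT lay in 38 of the 51 promoters (74.5%), against 77.8% of all protein-coding genes. It lay in 3 of the 7 bound genes (42.9%) and in 35 of the 44 that were not bound (79.5%), a difference that was not tested. For taf-6.1 this window is not the one that holds the summit, which lies by an inner start. The longer pattern lay in 1 of the 51 promoters, that of taf-10 (1.96%), against 6.57% of all protein-coding genes. CGCGC lay in 19 of the 51 (37.3%), against 26%. A match of letters is no evidence of binding, and its lack says only that these letters are not in the window.

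Other genes of the transcription machinery were described from a list of 46 symbols outside the naming rule, of which 42 were in the annotation. Of these, 10 were bound (23.8%, exact 95% interval 12.1 to 39.5, against 7.41% of all protein-coding genes). That interval left out the share of all genes. The list was chosen with earlier results of these data known, and the difference was not tested. Of the 10, 4 were bound in both replicates' lists, against 40.8% of all bound genes. Among initiation factors, the strongest was pqn-51, listed here with TFIIA and named in RefSeq only by its prion-like domain, at V:5049323-5049657 with a main-list signal of 559.0 and with 261.6 in replicate 1 and 301.7 in replicate 2 (mean 281.7 ± 28.3, SD, n = 2). That signal was above those of all 51 genes. The summit also lay in the window of the neighbouring gene K11D12.14. The others were cdk-7, the kinase of TFIIH (146.6), btf-1, the homologue of a factor that in yeast takes TBP off DNA (201.3), and snpc-3.4, a subunit of the complex that starts small nuclear RNA genes (271.2).

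Among elongation factors, pafo-1 of the PAF1 complex had a signal of 318.3, with 127.4 and 184.1 in replicates 1 and 2. T24H10.1, annotated as TFIIS, had 145.4, cit-1.2, a cyclin T, 105.7, and hmg-4, an SSRP1 subunit of the histone chaperone FACT, 103.3. Among factors of 3′ end formation and polymerase dephosphorylation, pcf-11 had 146.6 and ssup-72 109.9. The pcf-11 summit lay 63 bp downstream of an inner start and 493 bp downstream of the most upstream start. That of ssup-72 lay in an intron of the gene, 171 bp downstream of the start. The genes bound in the lists of both replicates were pqn-51, pafo-1, snpc-3.4 and btf-1, and cit-1.2, hmg-4 and pcf-11 were bound in neither. In 6 of the 12 regions at the bound genes of this list, CCAAT lay at most 100 bp from the summit. Among all main summits 36.9% had it, and 3 of the 6 regions were at pqn-51, where regions overlap. The longer pattern lay in none, against 8.38%.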

How the data were processed

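NFYB-1 ChIP-seq regions came from 2 biological replicates of 1 group. Per the labels and the deposited description files, the authors placed the regions on ce11 (WBcel235) and compared sets of calls by IDR; aligner and peak caller: not given in the sources used here. A deposited score is the scaled global IDR, the deposited signal is the caller's value on a scale that is not stated, and the deposited −log10 values of the ranked lists are of the global IDR. Whole-series lists came from the alignments of both replicates, so their signals were not set against those of a replicate. Depth is unknown, and intervals cover counting error only.

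From 7 of the deposited lists, summits were placed against all transcript starts of protein-coding genes in Ensembl release 115, and motifs were searched on both strands (Python 3.11.15). Intervals are exact Clopper-Pearson at 95% (SciPy 1.17.1). A replicate's signal is that of its ranked region overlapping (by at least 1 bp) the main region, summit nearest. With 1 group no test was run. Members and lists were chosen with earlier results of these data known. Every bound gene was named, along with ama-1, tbp-1 and ttb-1. Also named were genes bound only in another list or in the 1000 bp window, and genes sharing a bound promoter. Every bound gene of the further list was named too, and other genes that were not bound were named to account for every member. The bound calls and the search for the longer NF-Y pattern were checked on simulated data. Regions on the mitochondrial genome were left out.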

Additional observations from a re-analysis of the deposited data

How the results depend on the processing

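The count of bound polymerase and general factor genes was 7. It was 2 to 4 with 1 replicate left out, 3 at an IDR of 0.001, 2 with main regions that overlap both replicates' lists and, under the rule added after the data were seen, 11 with the first gene of a same-strand run. Under the other 5 alternatives (the other whole-series list, the narrow and wide promoters, region overlap and the nearest gene) it stayed within 1.5 times the count of 7. For the 42 further transcription genes the count was 10. It was 5 with replicate 2 left out (11.9%, against 3.68% of all protein-coding genes) and 6 with replicate 1 left out (14.3%, against 5.12%). At an IDR of 0.001 it was 5 (11.9%, against 3.79%). With main regions that overlap both replicates' lists it was 4 (9.52%, against 3.05%). The share of all genes thus also fell under each of these rules. The calls at rpb-9, taf-6.1 and taf-10 were absent from both replicates' lists, those at rpac-19 and rpb-3 from that of replicate 1. The region with CCAAT, at taf-10, had no match within 50 bp of the summit, and no summit of these genes in a replicate's list had CCAAT within 100 bp. Where counts moved, the cause was not tested. With 51 genes, shares have wide intervals, and with depth unknown a gene that was not bound is not shown to be free of NFYB-1. No paired analysis was possible because there was 1 group.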

Other observations

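At 4 genes without a summit of their own, the first gene of the same-strand run had one, a count made after the data were seen. Counted so, 21.6% of the 51 genes were bound, against 9.45% of all protein-coding genes. However, 39.2% of the 51 had a same-strand gene closely upstream, against 19.3% of all. The run of tbp-1 starts with T20B12.3, whose end lies 128 bp upstream of the tbp-1 start. Its region (III:7381753-7382128, signal 103.3) lies between T20B12.3 and hmg-4, 174 bp upstream of the T20B12.3 start and 345 bp upstream of that of hmg-4, so the same region was counted for the FACT subunit gene hmg-4. The run of rpc-2 starts with hach-1, 47 bp upstream of rpc-2, and its region (III:5554954-5555329) had a signal of 184.9. The run of rpb-5 starts with syp-4, which ends 486 bp upstream of rpb-5 (region I:6847072-6847447, signal 155.0). That of gtf-2F2 starts with Y39B6A.37, which ends 435 bp upstream of gtf-2F2 (region V:18990269-18990644, signal 147.9). Both gaps are near the limit of 500 bp. The summit counted for rpb-5 lay in noncoding exons of H27M09.6 and H27M09.7. That counted for gtf-2F2 lay in the 5′ untranslated region of reps-1. Neither region can be given to the first gene of its run alone. At rpac-19, both the gene's own window and that of the first gene, ubc-7, held a summit, with signals of 213.1 and 115.7. The gene just upstream of rpoa-49 is nfyc-1, which encodes the C subunit of NF-Y itself and ends 123 bp before the rpoa-49 start, and neither gene was bound.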
